A study of Mus musculus with 28 samples.

Results

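The constitutive proteasome is described here through its subunit genes and its activators, taken by symbol: the alpha and beta subunits of the 20S core (Psma and Psmb), the ATPases and the non-ATPase subunits of the 19S cap (Psmc and Psmd) and the activators (Psme). The inducible subunits Psmb8, Psmb9 and Psmb10 were left out of the set and are used only for comparison. The rule found 40 genes of 43629 in the count table: 8 Psma, 8 Psmb, 6 Psmc, 14 Psmd and 4 Psme. Of these, 38 passed the filter on low counts in each fit. The 2 others were Psma8 and Psmb11, relatives of core subunits known from testis and thymus: Psma8 had 0 to 9 counts per input library and 0 in every IP library, and Psmb11 had 1 to 10 counts per input library. In the IP, Psmb11 had 28 counts in healthy library 2, 7 in acute library 4, 74 in chronic library 2, 90 in chronic library 3 and 0 in the other 10.

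RNA came from the cortex of Glt25d2 BacTRAP mice, a line that carries tagged ribosomes in layer 5 projection neurons under control of the Glt25d2 gene. The IP holds RNA bound to those ribosomes, and the input is RNA of the whole cortex. All libraries share the genotype; the mice were either healthy or had experimental autoimmune encephalomyelitis (EAE, an autoimmune disease of the central nervous system) actively induced with MOG35-55, and for EAE the time since immunisation was 15 days (acute phase) or 30 days (chronic phase). Each fraction had 5 healthy, 5 acute and 4 chronic libraries, 28 in all. The age and sex of the mice, and whether each library came from its own mouse, are not in the labels, so p-values measure the spread between libraries only.

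Input libraries held 17848300 to 27915900 counts and 20714 to 21734 detected genes, IP libraries 6198090 to 21229600 counts and 9566 to 17995 genes. The acute IP libraries 1 and 3 had the fewest counts and the fewest genes of their group, and library 3 had 0 counts of Psmd9, Psme2 and Psme4. Counts of calls in acute IP, and values of the genes these libraries move, are also given without them. Of 8 layer 5 neuron markers, 5 were higher in IP than in input in healthy mice and 6 in each EAE phase, and their summed level was 636 to 763 CPM (counts scaled to the library's size) in input and 1092 to 2245 in IP. The IP libraries varied far more than the input: edgeR's common biological coefficient of variation was 1.06 in IP and 0.101 in input.

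The proteasome degrades proteins marked with ubiquitin chains. The 20S core is a barrel of alpha and beta rings. The outer alpha rings gate the entry, and the inner beta rings carry the proteolytic sites of Psmb5, Psmb6 and Psmb7. The 19S cap binds the ubiquitin chain, removes it and threads the substrate into the barrel with its ring of ATPases. Psme1 and Psme2 form the PA28 activator, which is induced by interferon gamma and opens the barrel without the cap. Psme3 is the nuclear relative of these, and Psme4 is a large single-chain activator. In neurons the proteasome shapes the turnover of synaptic proteins, and in inflamed tissue Psmb8, Psmb9 and Psmb10 can replace the 3 catalytic subunits.

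The promoters of the members are shown because interferon-inducible and constitutive subunits sit in 1 complex and the letters near their start sites can be compared. RefSeq start sites on GRCm38.p6 gave 36 windows of 300 bases (250 before and 50 after the start) for 33 of the 40 members. Both strands were searched for the core of an interferon-stimulated response element (a pair of GAAA repeats spaced by 2 bases), TTCNNNGAA (a gamma-activated site) and TGACNNNGC (the core of an antioxidant response element). The interferon letters were present in 4 of 36 member windows (11.1%) and in 3.44% of all 32851 windows. TGACNNNGC was present in 6 (16.7%, against 12.4%), and TTCNNNGAA in 1 (2.78%, against 8.3%). The first 4 lines carry the interferon letters, the fifth the gamma-activated letters, and the last the antioxidant letters in the promoters of catalytic subunits; capitals mark the match, and each stretch is read 5′ to 3′ on the strand of its gene.
Psme1, chr14:55578493-55578522, plus strand: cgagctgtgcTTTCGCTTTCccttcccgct
Psmb3, chr11:97703261-97703290, plus strand: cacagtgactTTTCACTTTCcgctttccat
Psmd4, chr3:95042675-95042704, minus strand: ataaccaaccTTTCCATTTCtgtggcgcct
Psmd9, chr5:123228021-123228050, plus strand: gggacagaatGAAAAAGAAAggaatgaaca
Psmd2, chr16:20651646-20651675, plus strand: gcgcgtggccTTCTGGGAAaaggggcggtg
Psmb5, chr14:54618023-54618052, minus strand: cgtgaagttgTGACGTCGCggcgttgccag
Psmb6, chr11:70525338-70525367, plus strand: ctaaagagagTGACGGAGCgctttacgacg
In Psme1, Psmb3 and Psmd4 the match lies on the strand opposite to the gene. The windows of Psme2 held none of the 3 sets of letters. A match describes these letters only.

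Among genes, levels were compared per length, as TPM (counts per summed exon length, scaled to the same total in each library). In healthy input the 38 expressed members ranged from 573 ± 22.5 TPM (mean ± SD, n = 5) for Psmc5, an ATPase of the cap, to 19.1 ± 2.28 TPM for Psme4, a ratio of 30.1. After Psmc5 came Psmb1 at 507 ± 16.0 TPM, a beta ring subunit, and Psmb7 at 483 ± 15.9 TPM. Psmc1 followed at 458 ± 19.7 TPM, Psmb5 at 442 ± 25.2 and Psmb4 at 430 ± 12.4 TPM. Subunits that enter the core in equal number differed in TPM: the highest and lowest core members, Psmb1 and Psma3 (120 ± 3.89 TPM), were 4.22-fold apart. This gap depends on the summed exon length used, 1036 bases for Psmb1 and 3894 for Psma3. The lowest genes of the alpha ring, beta ring and ATPases (Psma3, Psmb3 and Psmc2) were also the longest tested in their class. The ratio of highest to lowest was 3.18 in the alpha ring, 4.05 in the beta ring, 6.56 in the ATPases, 9.90 in the non-ATPases and 7.88 in the activators. The low end of the non-ATPases was Psmd9 at 28.8 ± 1.36 TPM, a chaperone of cap assembly and not a subunit of the finished cap. Of the 37 pairs of neighbours in this order, 25 overlapped within their spread. In healthy IP the order began with Psmb1 at 985 ± 224 TPM, Psmb5 at 790 ± 204, Psmb7 at 726 ± 107 and Psmc5 at 722 ± 107 TPM, and Psme4 was again lowest at 8.94 TPM.

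**Figure D1:**
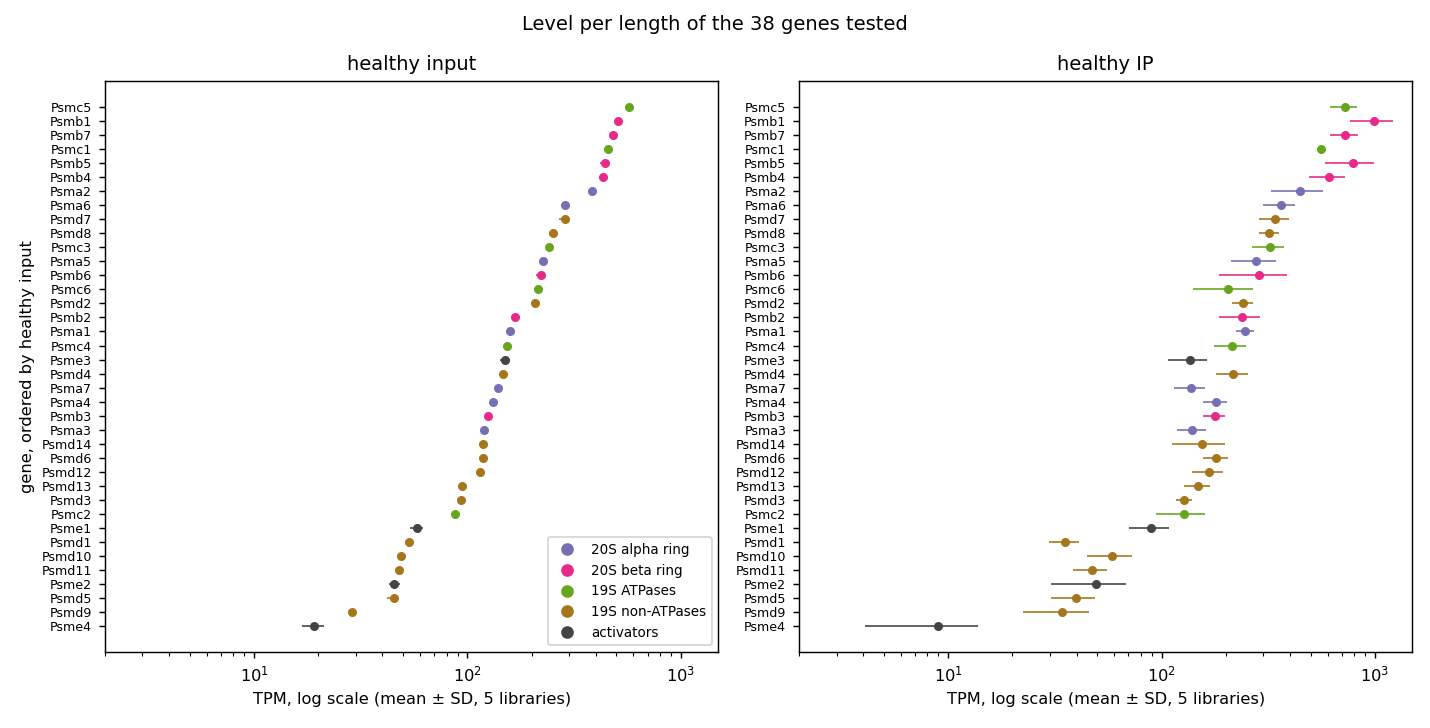
Level per length (TPM, log axis) of the 38 expressed members in healthy input and healthy IP; points are means and bars SD over 5 libraries. Psmc5 was highest in input (573 TPM) and Psmb1 in IP (985 TPM), and Psme4 was lowest in both.

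The members were steady within each input group. Their median coefficient of variation over libraries was 3.91% in healthy, 3.40% in acute and 5.37% in chronic input, against 20.1%, 39.7% and 20.7% in the IP groups. The members together took 0.428 to 0.477% of the counts of an input library and 0.364 to 0.850% of an IP library.

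In the acute cortex the PA28 activator stood out from the rest of the proteasome. Psme1 (ENSMUSG00000022216, chr14:55578123-55581529, GRCm38) was at 42.0, 35.2, 38.9, 37.4 and 36.4 CPM in the healthy input libraries and at 59.6, 50.4, 63.5, 50.7 and 57.4 CPM in the acute ones. Every acute library was above every healthy one. Psme1 rose 1.48-fold (log2 change 0.57 ± 0.07 SE, adjusted p = 1.71e-05 by edgeR's quasi-likelihood test with Benjamini-Hochberg adjustment, as for all adjusted p-values unless another tool is named).

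Psme2 (ENSMUSG00000079197, chr14:55587441-55591113), the other PA28 chain, lies 5911 bases from Psme1 and is transcribed from the opposite strand. It was at 23.6, 23.0, 24.3, 22.3 and 25.8 CPM in healthy input and at 42.9, 36.9, 51.6, 38.5 and 40.8 CPM in acute input, again with no overlap. It rose 1.77-fold (log2 change 0.82 ± 0.08, adjusted p = 1.36e-06). Its near-identical copy Psme2b held 9.15% of the counts of the pair in healthy, 13.5% in acute and 10.2% in chronic input, so reads of the 2 may be split between them.

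The other activators did not pass the test in acute input. Psme3 was at 138, 135, 124, 128 and 132 CPM in healthy and at 127, 134, 136, 131 and 130 CPM in acute input (log2 difference 0.00 ± 0.04, adjusted p = 0.987). Psme4 was at 52.8, 50.7, 38.6, 47.0 and 47.6 CPM in healthy and at 42.8, 45.3, 45.9, 43.8 and 37.5 CPM in acute input (−0.14 ± 0.08, adjusted p = 0.254). The groups overlapped for both genes.

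By the chronic phase PA28 was lower again. In chronic input Psme1 was at 36.9, 40.0, 37.4 and 44.5 CPM and Psme2 at 28.3, 30.1, 25.3 and 30.7 CPM, all below the acute libraries. Against the acute phase Psme1 fell by 0.50 ± 0.08 on the log2 scale (adjusted p = 0.0011) and Psme2 by 0.55 ± 0.09 (adjusted p = 0.0012), 29.3% and 31.9% lower. Against healthy input neither passed: the log2 difference was 0.07 ± 0.08 for Psme1 (adjusted p = 0.763) and 0.27 ± 0.09 for Psme2 (adjusted p = 0.134). Psme3 was at 141, 134, 133 and 125 CPM and Psme4 at 47.0, 50.4, 52.8 and 40.1 CPM in chronic input. Against healthy these differed by 0.03 ± 0.04 (adjusted p = 0.841) and 0.01 ± 0.09 (adjusted p = 0.975), and against acute by 0.03 ± 0.04 (adjusted p = 0.785) and 0.15 ± 0.09 (adjusted p = 0.326).

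**Figure D2:**
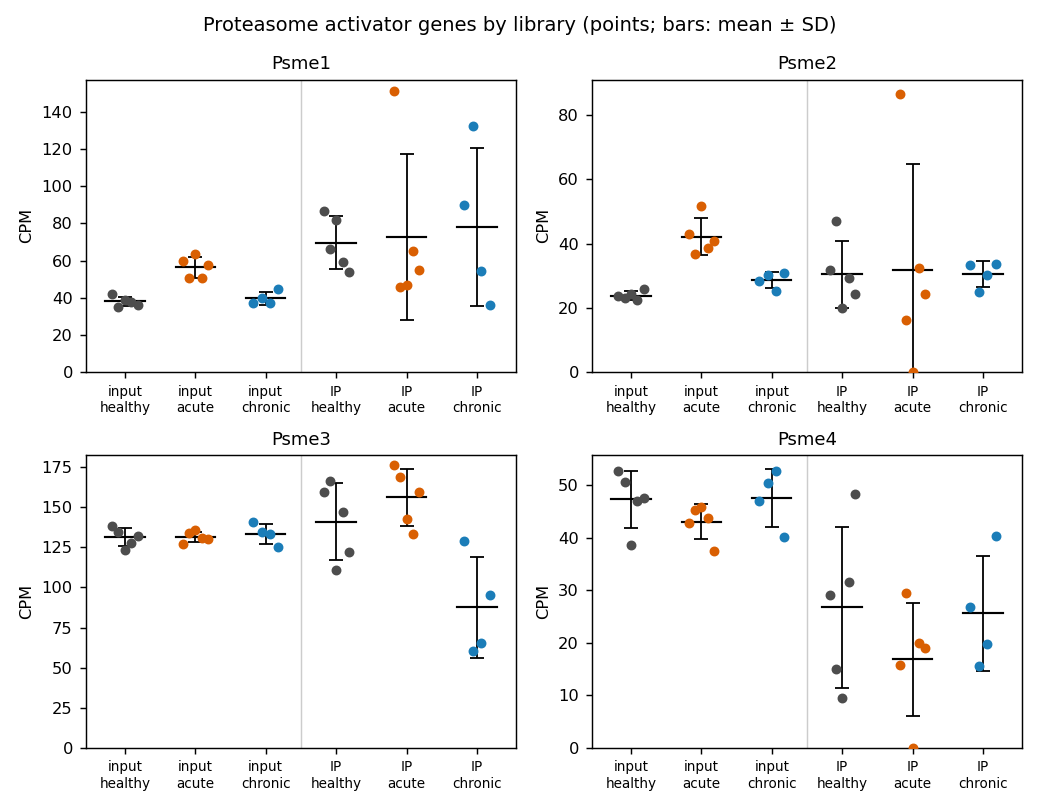
Levels of the 4 activator genes (CPM) in every library of the 6 groups; points are libraries, lines the mean and bars the SD. In input the acute libraries of Psme1 (50.4 to 63.5) and Psme2 (36.9 to 51.6) sit above all healthy and chronic ones, and the IP libraries spread widely.

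Several markers of immune and glial cells were also higher in acute input. The median log2 change from healthy of the microglia, leukocyte and astrocyte markers was 0.84, 2.98 and 0.65 in acute input. In chronic input it was 0.78, 2.24 and 0.58, while PA28 was lower again. Of 6 microglia markers 4 were higher and 1 lower in acute than in healthy input, and their summed level was 35.5 to 56.8 CPM in healthy, 79.6 to 135 in acute and 56.7 to 135 in chronic input. Of 8 markers of infiltrating leukocytes 6 could be tested and 5 were higher; the sum was 6.85 to 18.7, 14 to 25.5 and 9.93 to 29.2 CPM, Ly6c2 was at 0 in all healthy input libraries and Cd8a in 4 of 5. Of 5 astrocyte markers 2 were higher, with sums of 212 to 348, 510 to 729 and 353 to 712 CPM. The part of these cells in the Psme1 and Psme2 result was not tested. In whole cortex a change in the number of cells of a type and a change in RNA per cell cannot be told apart.

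The inducible subunits moved in the same libraries by larger factors. Psmb8 was at 1.22 to 2.23 CPM in healthy, 22.5 to 44.4 in acute and 6.24 to 16.8 in chronic input. Psmb9 was at 0.814 to 1.52, 18.3 to 30.3 and 4.24 to 11.4 CPM. Psmb10 was at 48.9 to 54.2, 68.8 to 87.0 and 48.2 to 57.2 CPM. The acute log2 changes were 4.39 ± 0.33 for Psmb8, 4.28 ± 0.29 for Psmb9 and 0.59 ± 0.06 for Psmb10 (adjusted p = 2.49e-06 for Psmb10). The constitutive catalytic subunits that they replace stayed within 0.13 on the log2 scale, as the next paragraphs give.

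Of the 38 members tested, 5 were higher and 2 lower in acute than in healthy input, beside 19.7% of all 16381 genes called in either direction (11.1% higher and 8.59% lower). Among the 4700 genes with a mean of at least 50 CPM in input 32.5% were called. The share of members called, 18.4%, was no higher than the 19.7% of all genes in the same fit. The limit of 50 CPM is a separate fit, which leaves out Psme1 and Psme2. The median log2 difference was 0.01 over the members and −0.01 over all genes. Apart from PA28, the called members moved by no more than 0.17 on the log2 scale. All 7 tested beta ring subunits had positive differences (median 0.12) and 2 were called. In the alpha ring 0 of 7 were called by edgeR (median 0.01).

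Psmb4, a beta ring subunit without proteolytic activity, was at 181, 173, 183, 177 and 169 CPM in healthy and at 197, 199, 192, 195 and 210 CPM in acute input. It rose 1.12-fold (log2 change 0.17 ± 0.04, adjusted p = 0.00442), and the groups did not overlap. Psmb1, from the same ring, was at 152, 149, 163, 156 and 160 CPM in healthy and at 173, 174, 167, 171 and 180 CPM in acute input and rose 1.11-fold (0.15 ± 0.04, adjusted p = 0.00987), also without overlap.

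In the cap Psmd8, a subunit of its lid, was at 118, 117, 114, 110 and 113 CPM in healthy and at 120, 127, 127, 129 and 127 CPM in acute input and rose by 0.14 ± 0.04 (adjusted p = 0.0146). The ATPase Psmc6 was at 105, 99.0, 94.9, 98.1 and 99.0 CPM in healthy and at 89.8, 91.9, 87.7, 90.2 and 89.0 CPM in acute input and fell by 0.15 ± 0.04 (adjusted p = 0.0149). Neither gene's groups overlapped. Psmd1, the large scaffold subunit of the cap, was at 117, 114, 112, 114 and 116 CPM in healthy and at 106, 112, 103, 105 and 92.9 CPM in acute input and fell by 0.14 ± 0.05 (adjusted p = 0.0398). This last call was lost in 12 of 18 other analyses.

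The catalytic subunits did not pass in the main fit of acute input. Psmb5 was at 111, 110, 116, 126 and 108 CPM in healthy and at 115, 119, 117, 120 and 123 CPM in acute input (0.06 ± 0.05, adjusted p = 0.405). Psmb6 was at 122, 114, 131, 128 and 117 CPM and at 131, 136, 132, 129 and 142 CPM (0.13 ± 0.05, adjusted p = 0.0762). Psmb7 was at 179, 166, 173, 182 and 169 CPM and at 182, 190, 180, 189 and 190 CPM (0.10 ± 0.04, adjusted p = 0.0702). Healthy and acute libraries overlapped for each of the 3 genes. Among genes of at least 50 CPM, edgeR called Psmb7 (adjusted p = 0.0141) and Psmb6 (0.0405) higher. DESeq2 also called Psmb7 (0.0350) and voom Psmb6 (0.0422). Each passed in 1 of 10 fits with a library left out.

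These small shifts moved with gene length. Beta ring genes are the shortest class (median summed exon length 1214 bases, against 3107.5 for the non-ATPases), and across the 38 members the acute log2 difference had a Spearman correlation of −0.51 with exon length, given as a description over genes that share the same libraries. With an offset for exon length in the fit, chosen after the data were seen, 4 members were called instead of 7. Of all genes 18.9% were called in that fit. Psme1 (0.50) and Psme2 (0.74) were still higher and Psmc6 (−0.24, adjusted p = 6.68e-04) still lower, and Psmd14, the deubiquitinase of the cap, was called lower (−0.16, adjusted p = 0.0255). The calls of Psmb4 (0.06, adjusted p = 0.225), Psmb1 (0.01), Psmd8 (0.04) and Psmd1 (−0.10, adjusted p = 0.129) ended.

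In chronic against healthy input edgeR called 0 of 38 members, beside 2.74% of all genes (2.33% higher and 0.409% lower). At an unadjusted p under 0.05 there were 4, beside 2310 of 16381 genes. DESeq2 called 1, Psmd1 (−0.17, adjusted p = 0.0434 by DESeq2), beside 4.31% of the genes it gave an adjusted p. Limma's voom called 0, beside 1.87% of all genes. In edgeR the smallest adjusted p was 0.0826, for the same gene (−0.17 ± 0.05), with chronic libraries at 99.8, 100, 110 and 94.8 CPM, all below the healthy ones. Psmb5 was at 109, 106, 113 and 112 CPM in chronic input (−0.05 ± 0.05, adjusted p = 0.713). Psmb6 was at 129, 116, 110 and 114 CPM (−0.06 ± 0.06, adjusted p = 0.686). Psmb7 was at 167, 162, 160 and 157 CPM (−0.11 ± 0.04, adjusted p = 0.218). The median over the members was −0.02.

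Between the EAE phases, 7 of 38 members were lower and 0 higher in chronic than in acute input by edgeR, beside 7.69% of all genes called (2.95% higher and 4.74% lower) and 19.8% of those with a mean of at least 50 CPM. Besides Psme1 and Psme2 these were Psmb7, Psmb4, Psmb6, Psmc4 and Psmd8. Psmb7, the trypsin-like subunit, fell by 0.21 ± 0.04 (adjusted p = 0.00444) and Psmb4, at 178, 173, 173 and 164 CPM in chronic input, by 0.20 ± 0.04 (adjusted p = 0.00565). In both the chronic libraries lay below every acute one. Psmb6, the caspase-like subunit, fell by 0.19 ± 0.06 (adjusted p = 0.0362), a call lost in 9 of 17 other analyses. Psmb5, the chymotrypsin-like subunit, differed by −0.11 ± 0.05 (adjusted p = 0.193).

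In the cap, the ATPase Psmc4 was at 109, 112, 108, 103 and 103 CPM in acute and at 99.8, 98.3, 95.4 and 85.9 CPM in chronic input and fell by 0.17 ± 0.05 (adjusted p = 0.0263). Psmd8 was at 112, 116, 112 and 106 CPM in chronic input and fell by 0.17 ± 0.04 (adjusted p = 0.0135). For both genes the chronic libraries lay below the acute ones. All 7 beta ring members were negative (median −0.11), and the median over all members was −0.06 against 0.01 over all genes. The acute libraries are shared by this comparison and the acute one, so their opposite signs are not 2 separate observations. With the exon length offset 3 members were called, beside 5.72% of all genes: Psme1 (−0.44), Psme2 (−0.48) and, higher, Psmc6 (0.18, adjusted p = 0.0306).

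In the neurons' IP many cap and core genes were above their level in whole cortex. In healthy mice the IP exceeded the input for 23 of the 38 members and fell short of it for 1, beside 21.6% of 16580 genes called in either direction (7.2% higher and 14.4% lower). Their median log2 ratio was 0.63, and that of all genes −0.23. Members are well expressed genes: of 4439 genes with a mean of at least 50 CPM, 22.2% were higher in healthy IP, with a median ratio of 0.02, and 23 of the 34 members in that range were higher. By class, 3 of 7 alpha, 6 of 7 beta, 5 of 6 ATPase, 8 of 14 non-ATPase and 1 of 4 activator genes were higher. All tests of IP against input share 1 spread between the fractions, lower than that of IP alone. Their standard errors may thus be too small for the IP.

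The largest ratios in healthy mice were in the beta ring. Psmb1 was at 152 to 163 CPM in input and at 321, 293, 398, 289 and 519 CPM in IP, a log2 ratio of 1.22 ± 0.21 (adjusted p = 1.03e-04), with every IP library above every input library. Psmb6 had the lowest ratio of the ring, with 114 to 131 CPM in input and 99.8, 187, 301, 174 and 195 CPM in IP (0.64 ± 0.29, adjusted p = 0.121); its IP library 1 lay below the input. In the alpha ring Psma1 was highest, at 93.9 to 102 CPM in input and 195, 170, 210, 179 and 167 CPM in IP (0.89 ± 0.25, adjusted p = 0.00817). The lowest was Psma7, at 124 to 134 CPM in input and 150, 106, 182, 140 and 174 CPM in IP (0.24 ± 0.31, adjusted p = 0.715). Psma1 separated the fractions fully and Psma7 did not.

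Among the ATPases of healthy mice Psmc2 was highest, at 123 to 135 CPM in input and 271, 126, 278, 244 and 222 CPM in IP (0.81 ± 0.21, adjusted p = 0.00391), with IP library 2 within the input range. Psmc6 was lowest, at 144, 103, 141, 118 and 58.7 CPM in IP (0.18 ± 0.21, adjusted p = 0.661). Among the non-ATPases Psmd13, a lid subunit, was highest, at 89.3 to 97.9 CPM in input and 158, 157, 166, 180 and 233 CPM in IP (0.92 ± 0.18, adjusted p = 3.42e-04). Its fractions did not overlap. Psmd1 was the lowest, at 90.7, 101, 89.3, 99.3 and 72.8 CPM in IP, all below the input libraries (−0.34 ± 0.12, adjusted p = 0.0448). That call was lost when any of the 5 replicates was left out and with the exon length offset (−0.08, adjusted p = 0.778).

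Of the 4 activators 1 was called in healthy mice. This was Psme1, at 86.5, 66, 82.0, 59.5 and 53.9 CPM in IP, all above its input (0.87 ± 0.28, adjusted p = 0.0235); the call was lost without replicate 1 (0.0773), 2 (0.065) or 3 (0.0832). Psme2 was at 31.7, 47.2, 19.98, 29.2 and 24.2 CPM in IP (0.35 ± 0.56, adjusted p = 0.774), and Psme3 at 159, 166, 111, 147 and 122 CPM (0.10 ± 0.15, adjusted p = 0.749). Psme4 had the lowest ratio of the class, at 29.1, 15.0, 9.48, 31.6 and 48.4 CPM (−0.83 ± 0.52, adjusted p = 0.33). The IP values of Psme2, Psme3 and Psme4 overlapped their input.

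In acute EAE 12 members were higher in IP than in input and 0 lower by edgeR, beside 18.7% of all genes called (8.56% higher and 10.1% lower). Among genes of at least 50 CPM 25.9% were higher in acute IP, beside 12 of the 34 members in that range. The 12 were 5 ATPases and 7 non-ATPases. Psmc4 was at 217, 170, 188, 206 and 193 CPM in IP and 103 to 112 CPM in input (0.86 ± 0.11, adjusted p = 1.34e-06), and Psmc6 had the lowest ratio of the ATPases (−0.03 ± 0.21, adjusted p = 0.948). Psmd13 was at 354, 109, 187, 181 and 200 CPM in IP and 90.2 to 100 CPM in input (1.11 ± 0.18, adjusted p = 2.96e-05). Psmd10, an assembly chaperone known as gankyrin, was at 32.4, 16.6, 12.8, 16.6 and 15.5 CPM in IP and 19.3 to 23.1 CPM in input (−0.19 ± 0.27, adjusted p = 0.696). IP and input were apart for Psmc4 and Psmd13 and overlapped for Psmd10. Without acute replicates 1 and 3 the ratios were 0.84 (adjusted p = 1.60e-04), 0.75 (0.00283) and −0.44 (0.319).

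None of the 14 tested core subunits was called by edgeR in the acute IP against input, and the smallest adjusted p was 0.0568. Of the 14, 6 had an unadjusted p under 0.05, beside 4769 of 16580 genes. Limma's voom with library weights called 7 of the 14, beside 41.4% of all genes called in either direction. Psma1 was at 302, 114, 41.8, 150 and 144 CPM in acute IP (0.62 ± 0.25, adjusted p = 0.0819) and Psmb5 at 319, 148, 72.7, 165 and 200 CPM (0.60 ± 0.23, adjusted p = 0.0621). Psma3 had the lowest ratio of the alpha ring (−0.34 ± 0.17, adjusted p = 0.174) and Psmb2 of the beta ring (0.13 ± 0.24, adjusted p = 0.779). For Psma1 and Psmb5, library 1 was highest and library 3 lowest. Without acute replicates 1 and 3, left out of both IP and input here, 14 members were called, beside 14.2% of all genes. Among the 14 were Psma1 (0.48, adjusted p = 0.0117) and Psmb7 (0.50, adjusted p = 0.0235). Leaving out replicate 3 alone, from both fractions, gave 18 calls and replicate 1 alone 9.

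Of the activators in acute mice, Psme1 was at 151, 45.9, 46.7, 65.0 and 55.2 CPM in IP (0.37 ± 0.28, adjusted p = 0.42) and Psme2 at 86.7, 16.2, 0, 32.3 and 24.3 CPM (−0.40 ± 0.56, adjusted p = 0.694). Psme3 was at 176, 169, 143, 133 and 159 CPM (0.25 ± 0.15, adjusted p = 0.289). Psme4 was at 15.7, 29.5, 0, 19.9 and 19 CPM, all below the input libraries (−1.34 ± 0.53, adjusted p = 0.0781). For Psme1 and Psme2, IP library 1 lay far above the rest. Without acute replicates 1 and 3 the ratios were 0.07 for Psme1, −0.68 for Psme2, 0.23 for Psme3 and −0.89 for Psme4, with adjusted p-values of 0.961, 0.116, 0.617 and 0.163.

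In chronic EAE the IP level was above the input for 24 members and below it for 1, beside 28.7% of all genes called (8.74% higher and 20% lower), with a median ratio of 0.72 over the members. Among genes of at least 50 CPM 26.4% were higher, beside 24 of the 34 members in that range. All 6 ATPases, 9 of 14 non-ATPases, 5 of 7 beta, 3 of 7 alpha and 1 of 4 activator genes were higher. Psmd2, the second large scaffold subunit of the cap, was at 493, 542, 595 and 670 CPM in IP and 211 to 253 CPM in input (1.30 ± 0.12, adjusted p = 4.36e-09). Psmc4 was at 211, 243, 172 and 210 CPM in IP (1.14 ± 0.13, adjusted p = 7.73e-08). The IP libraries of both lay above all their input libraries. Leaving out replicate 2 of the chronic phase lowered the count of members called in this comparison to 16.

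In the core of chronic mice Psmb5 was highest, at 268, 318, 171 and 249 CPM in IP (1.19 ± 0.26, adjusted p = 8.78e-04), and Psmb6 lowest in its ring, at 143, 205, 103 and 188 CPM (0.45 ± 0.32, adjusted p = 0.368). Psma5 was at 148, 205, 138 and 134 CPM in IP (0.92 ± 0.28, adjusted p = 0.0142) and Psma7 at 117, 175, 127 and 172 CPM (0.23 ± 0.35, adjusted p = 0.736). Psmb5 and Psma5 were above their input in every IP library. The lowest ratio of the ATPases was that of Psmc6 (0.68 ± 0.24, adjusted p = 0.0297), a call lost when any of the 4 chronic replicates was left out (adjusted p = 0.056 to 0.136). The lowest of the non-ATPases was that of the lid subunit Psmd11, at 119, 83.8, 56.2 and 133 CPM (0.19 ± 0.20, adjusted p = 0.569). Psme1 was higher in IP (0.98 ± 0.32, adjusted p = 0.0186), at 89.8, 133, 54.4 and 36.1 CPM, although library 4 lay below the input libraries. This call was lost without chronic replicate 1 (0.0943) or 2 (0.60, adjusted p = 0.232) and with the replicate block (0.82, adjusted p = 0.0547). Psme2, at 33.4, 25, 30.4 and 33.8 CPM, had a ratio of 0.10 ± 0.63 (adjusted p = 0.946), and Psme4, at 26.7, 15.5, 19.7 and 40.4 CPM, of −0.89 ± 0.59 (adjusted p = 0.316).

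Over the 3 phases 12 members were higher in IP than in input each time: the ATPases Psmc1 to Psmc5 and the non-ATPases Psmd2, Psmd3, Psmd4, Psmd6, Psmd7, Psmd12 and Psmd13. These include Psmd4, a ubiquitin receptor, and 5 lid subunits. The exon length offset ended the healthy calls of Psmc1 (0.30, adjusted p = 0.0649) and Psmd7 (0.26, adjusted p = 0.136). Psmd7 was called in 2 of 5 healthy, 4 of 5 acute and 2 of 4 chronic fits with a replicate left out. Psmd4 was called in 2 of 4 such chronic fits, Psmc3 in 3 of 5 acute and Psmc2 in 4 of 5 acute fits. Psmc5 was called in 4 of 5 healthy and 3 of 4 chronic fits. Psmc1, Psmc4, Psmd2, Psmd3, Psmd6, Psmd12 and Psmd13 passed in every such fit. A further 9 were higher in 2 phases and 5 in 1. The shares of all genes higher in 3, 2, 1 or 0 phases were not computed, so these counts stand without a comparison. In the single phases 7.2%, 8.56% and 8.74% of all genes were higher. Among genes of at least 50 CPM the shares were 22.2%, 25.9% and 26.4%. The 12 that were higher in none were Psma2, Psma6, Psma7, Psmb6, Psmd5, Psmd9, Psmd10, Psmd11, Psmd14, Psme2, Psme3 and Psme4. Psmd5, Psmd9 and Psmd10, the 3 chaperones of cap assembly carried under the Psmd symbol, are all among these 12. Whether these differ from the cap subunits as a group was not tested.

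**Figure D3:**
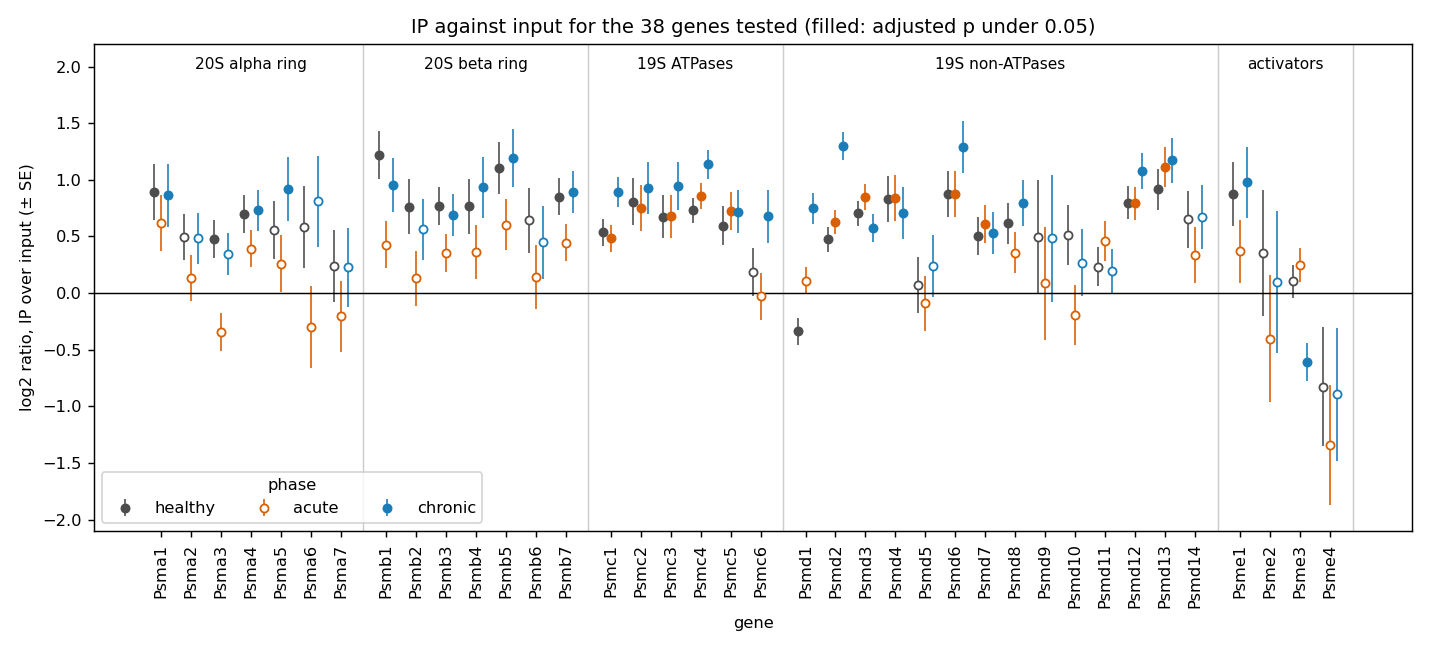
Log2 ratio of IP to input (± SE) of the 38 tested members in the 3 phases, by structural class; filled points have an adjusted p under 0.05. The median ratio of the 38 members was 0.63 in healthy, 0.36 in acute and 0.72 in chronic mice, and Psme4 has the lowest ratio in each phase, with a wide error.

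Within the IP no phase comparison gave a called member by edgeR. In simulated data the test of acute against healthy IP called 9 of 95 2-fold changes. Those genes were drawn at random from all tested genes, so the rate for the members, or for the other phases, is not given. An absent call does not show an absent change. In acute against healthy IP 0 of 38 passed, beside 0.0647% of 13914 genes (0.0575% higher and 0.00719% lower). Of the members 2 had an unadjusted p under 0.05, beside 871 of the 13914 genes. DESeq2 called 1 (Psma3), beside 3.42% of the genes it gave an adjusted p. Voom called 2 (Psma3 and Psma6), beside 2.73% of all genes. The 14 core genes all had negative differences, from −0.91 to −0.25 with a median of −0.37, while the 20 cap genes were 10 positive and 10 negative with a median of 0.00. The median over all genes was −0.04. With the exon length offset 12 of the 14 core genes were negative (median −0.26), and Psmb5 and Psmb7 were at −0.03 and 0.02. Psma3, an alpha ring subunit, was at 212, 145, 231, 171 and 207 CPM in healthy IP and at 95, 65.9, 108, 136 and 113 CPM in acute IP (−0.91 ± 0.23, adjusted p = 0.198); its groups did not overlap. The catalytic subunits differed by −0.45 ± 0.29 (Psmb5), −0.38 ± 0.38 (Psmb6) and −0.32 ± 0.21 (Psmb7).

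The acute IP libraries were uneven in these genes. The summed level of the 7 beta ring genes was 1279 to 2112 CPM in healthy IP and 550 to 2048 CPM in acute IP, with library 3 lowest, library 2 next at 940 CPM and library 1 highest. The alpha ring sum was 929 to 1204 CPM and 373 to 1352 CPM, with the same 2 libraries lowest and library 1 highest. The ATPase sum was 1163 to 1597 CPM in healthy and 906 to 2074 in acute IP. Astrocyte markers were at a sum of 84.0 to 243 CPM in healthy IP and 435 to 647 CPM in acute IP, with 1 of 5 called higher, and library 1 had a sum of 0 for microglia and for leukocyte markers; their part in the result was not tested. The acute difference in IP minus that in input was also negative for the 14 core genes (median −0.43). With the exon length offset 12 of 14 were negative (median −0.20). In this test edgeR called 0 of 38, beside 0.00603% of all genes. Of the members 3 had an unadjusted p under 0.05, beside 1901 of 16580 genes. DESeq2 called 1, beside 2.26% of the genes it gave an adjusted p, and voom 2, beside 1.48% of all genes. The smallest adjusted p by edgeR was 0.0892, for Psma3 (−0.82 ± 0.24). Without acute replicates 1 and 3 (of the IP for the first comparison, of both fractions for the second) edgeR again called 0 in each. The shares of all genes called there were 0.178% and 1.27%.

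**Figure D4:**
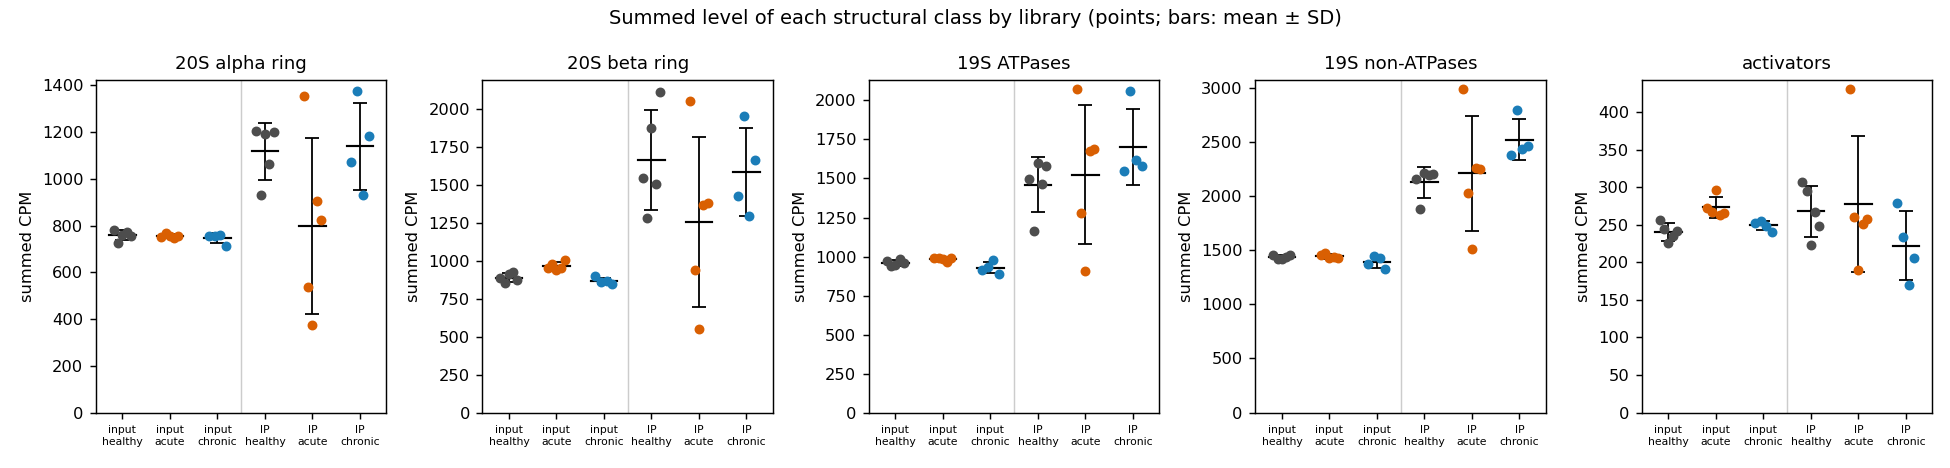
Summed CPM of the members of each structural class in every library of the 6 groups; points are libraries, lines the mean and bars the SD. Input sums stay within narrow ranges (beta ring 848 to 1007), and the acute IP libraries span 550 to 2048 for the beta ring.

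PA28 showed no called change in the neurons' IP. Psme1 differed by 0.06 ± 0.35 between acute and healthy IP and Psme2 by 0.06 ± 0.77, with means of 69.6 ± 14.2 and 72.8 ± 44.5 CPM for Psme1 and 30.4 ± 10.4 and 31.9 ± 32.9 CPM for Psme2 (SD, n = 5). Leaving out 1 library at a time moved the acute values between −0.40 and 0.21 for Psme1 and between −0.77 and 0.40 for Psme2, and without acute IP libraries 1 and 3 both were −0.35. In chronic against healthy IP the differences were 0.16 ± 0.38 and 0.00 ± 0.82. The acute change in IP minus that in input was −0.50 ± 0.40 for Psme1 (adjusted p = 0.836) and −0.76 ± 0.79 for Psme2 (adjusted p = 0.946). At this spread a change in IP as large as the one in input could not be told from none.

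Among phase differences in the IP, the smallest adjusted p-values belonged to the scaffold pair of the cap, Psmd1 and Psmd2, which hold the base of the cap together and dock ubiquitin carriers. Psmd1 (ENSMUSG00000026229, chr1:86064387-86139151) was at 90.7, 101, 89.3, 99.3 and 72.8 CPM in healthy IP, 90.4, 128, 101, 124 and 116 CPM in acute IP and 141, 206, 185 and 150 CPM in chronic IP. Every chronic library was above every healthy and acute one. Its chronic level was 1.88 times the healthy one (log2 difference 0.91 ± 0.20), which narrowly missed the threshold (adjusted p = 0.0546).

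Psmd2 (ENSMUSG00000006998, chr16:20651652-20663414) was at 354, 351, 306, 387 and 323 CPM in healthy IP, 440, 442, 270, 391 and 341 CPM in acute IP and 493, 542, 595 and 670 CPM in chronic IP, again with the chronic libraries on top. Its chronic level was 1.66 times the healthy one (0.73 ± 0.16, adjusted p = 0.0546). Both genes passed with DESeq2's size factors (adjusted p = 0.0390 and 0.0400), among genes of at least 50 CPM (0.0139 for each) and by DESeq2 (5.12e-05 and 3.20e-04), and neither passed with a replicate block (0.138). With the exon length offset Psmd2 passed (0.0296) and Psmd1 did not (0.0615), and likewise with voom (0.0463 and 0.0559).

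In chronic against healthy IP edgeR thus called 0 of 38 members, beside 0.187% of all genes (0.18% higher and 0.00719% lower). Of the members 3 had an unadjusted p under 0.05, beside 1494 of 13914 genes. DESeq2 called 2, beside 2.18% of the genes it gave an adjusted p, and voom 1, beside 0.381% of all genes. The median over the members was 0.02. The catalytic subunits differed by 0.03 ± 0.30 (Psmb5), −0.26 ± 0.40 (Psmb6) and −0.07 ± 0.22 (Psmb7). Between chronic and acute IP edgeR called 0 members and 0% of all genes. Of the members 6 had an unadjusted p under 0.05, beside 1145 of 13914 genes. DESeq2 called 3, beside 3.99% of the genes it gave an adjusted p, and voom 1, beside 0.431% of all genes. In that comparison Psmd1 differed by 0.61 ± 0.20 (adjusted p = 0.382) and Psmd2 by 0.61 ± 0.16 (adjusted p = 0.244). The 14 core genes were all positive (0.11 to 1.04, median 0.38), which shares the acute libraries with the negative values above. Psmb5 differed by 0.48 ± 0.30, Psmb6 by 0.11 ± 0.40 and Psmb7 by 0.25 ± 0.22.

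The change from healthy to chronic was also compared between the fractions. In input Psmd1 was at 112 to 117 CPM in healthy and 94.8 to 110 CPM in chronic libraries, and Psmd2 at 238 to 258 and 211 to 253 CPM. The chronic change in IP minus that in input was 1.09 ± 0.18 for Psmd1 (adjusted p = 0.00261) and 0.82 ± 0.16 for Psmd2 (adjusted p = 0.0158). These were the 2 members of 38 called, beside 1.03% of all genes (0.633% higher and 0.392% lower). Both fractions share 1 spread in this fit, with a common biological coefficient of variation of 0.71 against 1.06 in IP alone. The standard errors may thus be too small for the IP. The Psmd1 difference passed when each library number was left out in turn (adjusted p = 0.0031 to 0.0293), with a replicate block (0.0325) and with the exon length offset (1.0, 0.0045). That of Psmd2 did not pass with the block (0.0563), without chronic replicate 3 (0.0541) or without chronic replicate 4 (0.0643), which left 1 member called; leaving out chronic replicate 1 gave 3.

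Marker sums of other cells also differed in the chronic IP. The interneuron marker sum was 860 to 1204 CPM in chronic and 496 to 729 CPM in healthy IP, with 1 of 5 markers called (Gad1, 607 to 795 against 242 to 444 CPM). The astrocyte sum was 285 to 783 against 84.0 to 243 CPM (0 of 5 called by edgeR), the microglia sum 32.9 to 147 against 10.9 to 38.1 CPM and the oligodendrocyte sum 690 to 2037 against 783 to 965 CPM. The layer 5 sum was 1092 to 1698 against 1207 to 1559 CPM, with 0 of 8 called. The endothelial sum was 7.93 to 32.2 against 19.3 to 46.6 CPM (0 of 4 called). Chronic library 4 set the top of the interneuron, astrocyte, microglia and oligodendrocyte ranges and the bottom of the layer 5 and endothelial ranges. In the other chronic libraries the oligodendrocyte sum was 690 to 872 CPM and the microglia sum 32.9 to 48.4 CPM. In the input, interneuron sums were 858 to 909 CPM in chronic and 850 to 1038 CPM in healthy mice. The part of these cells in the Psmd1 and Psmd2 result was not tested.

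**Figure D5:**
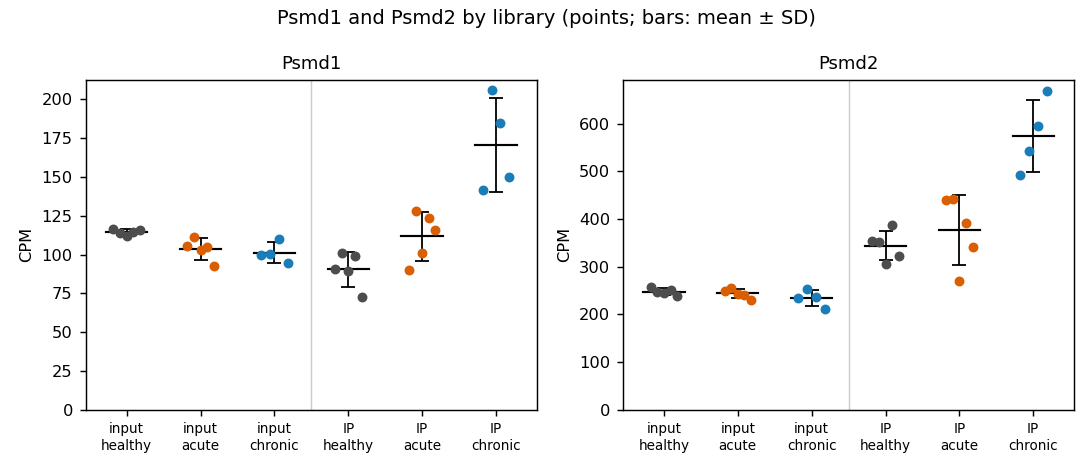
Levels of Psmd1 and Psmd2 (CPM) in every library of input and IP by phase; points are libraries, lines the mean and bars the SD. In IP the chronic libraries (141 to 206 for Psmd1, 493 to 670 for Psmd2) lie above all healthy and acute ones, and in input the groups lie close together.

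Psme3, the nuclear activator, was low in chronic IP. It was at 129, 60.4, 65.6 and 95.3 CPM there, against 111 to 166 CPM in healthy IP and 133 to 176 CPM in acute IP, and only chronic library 1 reached the healthy range. In chronic mice it was lower in IP than in input (−0.61 ± 0.17, adjusted p = 0.00661), a call lost without chronic replicate 2 (−0.46, adjusted p = 0.0589) or 3 (−0.49, adjusted p = 0.0536). The phase differences did not pass: −0.69 ± 0.23 against healthy IP (adjusted p = 0.274), −0.83 ± 0.23 against acute IP (adjusted p = 0.284) and −0.71 ± 0.22 for the change in IP minus that in input (adjusted p = 0.0795). The last passed without chronic replicate 1 (−0.93, adjusted p = 0.0272) and by DESeq2 (0.0342), which also called the difference from acute IP (0.0308). In acute against healthy IP Psme3 differed by 0.14 ± 0.22. Psme4 differed by −0.68 ± 0.77 in acute and −0.07 ± 0.82 in chronic IP, each against healthy.

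Other genes of the ubiquitin-proteasome pathway were followed as a list of 30, of which 28 were tested. In acute input 7 were higher and 3 lower, beside 11.1% and 8.59% of all genes. Psmb8 and Psmb9 led, followed by Psmb10. Nfe2l2, a stress-response transcription factor, rose by 0.49 ± 0.10 (adjusted p = 0.0023). Usp14, the deubiquitinase that rides on the cap, fell by 0.25 ± 0.05 (adjusted p = 0.0018) and Vcp, the segregase that feeds the proteasome, by 0.19 ± 0.04 (adjusted p = 0.0035). Nfe2l1, the transcription factor known to drive proteasome subunit genes when proteasome activity falls, differed by 0.05 in acute (adjusted p = 0.39) and 0.07 in chronic input (adjusted p = 0.51).

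In chronic against healthy input Psmb8 (2.69 ± 0.36) and Psmb9 (2.63 ± 0.31) were still higher, and Uba1, the ubiquitin-activating enzyme, fell by 0.17 ± 0.04 (adjusted p = 0.0437). Between chronic and acute input 5 of the 28 were lower and 0 higher by edgeR, beside 4.74% and 2.95% of all genes. Among the 5 were Psmb8 (−1.69), Psmb9 (−1.65) and Psmb10 (−0.54). Within the IP 0 of those tested were called by edgeR in any phase comparison.

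In IP against input 9 of the list were higher in healthy, 8 in acute and 7 in chronic mice, beside 7.2%, 8.56% and 8.74% of all genes. Among genes with a mean of at least 50 CPM 22.2%, 25.9% and 26.4% were higher. How many of the list lie in that range is not given. Of the list 1 was lower in acute and 1 in chronic mice, beside 10.1% and 20% of all genes. Uba1 had ratios of 1.31, 1.56 and 1.99 in the 3 phases, Vcp of 1.18, 1.43 and 1.49, Ubb of 1.0, 0.92 and 0.93 and Usp14 of 0.43, 0.73 and 0.81. Nfe2l1 was lower in IP in chronic mice (−0.29 ± 0.10, adjusted p = 0.040). Uba1 was the 1 gene of 28 whose chronic change differed between IP and input (0.68 ± 0.16, adjusted p = 0.0360), in the same direction as Psmd1 and Psmd2 and from the same libraries.

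Core and cap members of a class tended to vary together from library to library within a group. After each group's mean was removed, the median pairwise Pearson correlation over the 14 IP libraries was 0.78 in the beta ring and 0.60 in the alpha ring. It was 0.52 in the ATPases, 0.27 in the non-ATPases and 0.22 in the activators, against 0.49 over all members and 0.13 over a sample of the tested genes. In input it was 0.42, 0.47, 0.33 and 0.18 in the first 4 classes and −0.09 in the activators. Over all members it was 0.18 there, and 0.009 over the same sample of genes. The sample holds genes of every level past the filter, and no value for genes as well expressed as the members was computed. These values describe points that share library and depth and carry no test.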

How the data were processed

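RNA-seq of 14 input and 14 IP libraries was analysed from the deposited gene counts (whole reads per gene). Counts were made by the authors with featureCounts 1.5.1 on paired reads without strand, over exons by gene of Ensembl 79 for GRCm38, per the file headers; STAR 2.4 and DESeq2 are named in the submitters' processing notes. Without strand, reads of overlapping antisense genes cannot be told apart. The header lists 36 alignments; those outside the 28 libraries are not analysed here. Symbols matched 42462 of 43629 genes (97.3%). The 52 pairs of replicates all differed by more than sampling noise.

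Tests used edgeR 4.0.16 in R 4.3.3: TMM factors, genes kept at a minimum count of 10 and total of 15, quasi-likelihood test, Benjamini-Hochberg adjustment over all genes, calls at an adjusted p under 0.05. Input libraries (16381 genes), IP libraries (13914) and all 28 (16580, for IP against input and for differences between the fractions) were fitted separately. The scripts were tested on simulated data. CPM use TMM factors over all 28 libraries; TPM use summed exon length. Alternatives were DESeq2 1.42.0 and its size factors, voom with library weights (limma 3.58.1), no filter, a mean of at least 50 CPM, a replicate block, 1 fit of all libraries, each replicate left out, and, chosen after seeing the data, an exon length offset and leaving out acute replicates 1 and 3. Where a fit held both fractions, a replicate was left out of both.

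Members and lists were chosen with earlier results of these data known. Full statistics go to members called between phases, the highest and lowest IP to input ratio of each class, the activators and the catalytic subunits; of the pathway list, to Psmb8, Psmb9, Psmb10, Nfe2l1 and up to 4 others per comparison with the smallest adjusted p. The labels name no batch, so none was modelled.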

Additional observations from a re-analysis of the deposited data

Results flagged for a closer look

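Of 114 groups of 4 or 5 libraries examined for a value far from the rest, 7 held one; chance gives about 1 in 20. Psmd8 was at 120.0 CPM in acute input library 1, below the other 4 at 126.7 to 128.7. Psme1 was at 151.2 CPM in acute IP library 1, above the other 4 at 45.86 to 65.0. The alpha ring sum was 712.7 CPM in chronic input library 4, below the others at 755.5 to 760.5. The ATPase sum was 2061 CPM in chronic IP library 2, above the others at 1546 to 1618, and 967.6 CPM in acute input library 4, below the others at 987.1 to 991.7. The non-ATPase sum was 1878 CPM in healthy IP library 2, below the others at 2159 to 2211, and the activator sum was 296.5 CPM in acute input library 3, above the others at 263.6 to 272.3.

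The change from healthy to chronic differed between IP and input for Psmd1, by 1.09 ± 0.18 on the log2 scale, and for Psmd2, by 0.82 ± 0.16, in the test of the difference itself.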

How the results depend on the processing

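Over 1855 values of the 130 named member results under other settings, 1740 kept their side of the threshold. Of the rest, 100 called ones no longer passed and 15 newly passed. In 0 cases did a value called in either fit change direction. Among the 1740, 70 values uncalled in both fits changed sign. Counts of members called moved as follows, and the cause was not tested. Brackets hold the share of all genes called by the same fit (for DESeq2's test, of genes given an adjusted p). DESeq2's test called 1 member in chronic input (4.31%), 1 in acute IP (3.42%) and 2 in chronic IP (2.18%), each against healthy. It also called 3 in chronic against acute IP (3.99%) and 1 for the acute difference between fractions (2.26%). Its size factors within edgeR called 2 in chronic IP (0.388%), as did the limit of 50 CPM (3.83% of genes in that range). Voom called 2 in acute IP (2.73%), 1 in chronic IP (0.381%) and 1 in chronic against acute IP (0.431%). It called 22 in acute IP against input (41.4%) and 2 for the acute difference between fractions (1.48%). The exon length offset called 4 in acute input (18.9%), 3 in chronic against acute input (5.72%) and 1 in chronic IP (0.431%). In healthy IP against input it called 19 members higher, beside 7% of all genes. There it ended the calls of Psmd1, Psmb2, Psmd7, Psma3 and Psmc1. A fit of all 28 libraries, whose shared spread includes the IP, called 0 in acute input (0.121%) and 0 in chronic against acute input (0%). It called 2 in acute IP (9.72%), 5 in chronic IP (15.4%) and 6 in chronic against acute IP (10.6%).

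With a replicate left out, the counts ranged from 6 to 8 in acute input, 0 to 2 in chronic input (2 without input chronic replicate 3), 5 to 7 in chronic against acute input, 18 to 22, 9 to 18 and 16 to 23 in IP against input (healthy, acute, chronic), 1 to 3 for the chronic difference between fractions, and 0 to 0 for the acute one and the 3 phase comparisons within IP. The 9 and the 18 came without acute replicates 1 and 3, the 16 without chronic replicate 2, the 1 without chronic replicate 3 or 4 and the 3 without chronic replicate 1. The share of all genes called was not computed for these fits.

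Replicate numbers are not shown to pair IP and input: deviations of same-numbered libraries correlated at a median of 0.048, 2 of 14 above 0.1, though 10 of 14 IP libraries correlated best with their own number. With the replicate block the chronic difference between fractions gave 1 call in place of 2, beside 0.169% of all genes. The block gave 7 calls in acute input (19.2% of all genes), 0 in chronic input (2.36%) and 6 in chronic against acute input (5.68%). It gave 0 in each IP phase comparison and 0 for the acute difference between fractions. In IP against input it gave 22, 12 and 24 (20.7%, 14.6% and 25% of all genes).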
